A study of Homo sapiens with 8 samples.

Results

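MDA-MB-231, an established human line from a breast cancer with mesenchymal features, was profiled on whole-genome arrays 48 h after cells were given either a miR-148b precursor or a negative control. The comparison given here is that of miR-148b with control within the 3 biological replicates whose arrays match fully in their sample titles. It uses 6 of the 8 arrays of the series, replicates 1, 3 and 4 of each group. The titles number the arrays and add a plus sign to some, and no label explains either. Replicate 1 is marked 1 in both groups, replicate 3 is marked 2+ in both, and replicate 4 is marked 3 in both. Replicate 2 was left out because its miR-148b array is marked 1+ and its control array 2. The mark and the replicate cannot be told apart in these pairs, but each mark stands on 1 miR-148b and 1 control array.

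The miR-148b group received 75 nM of pre-miR-148b with the reagent RNAiFect, and total RNA was taken 48 h later, per the labels. The control group received a negative control precursor with the same time of harvest, and its dose is not given in the sources used here. Both groups are the same line without other alleles or agents in the labels. The dose is that of an added precursor and not the level of miR-148b in untreated cells. Each array was hybridised with 1 dye, Cy3. The values are the deposited probe intensities on a linear scale. In a bulk RNA sample, fewer cells of a kind and less RNA per cell cannot be told apart.

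MicroRNAs guide Argonaute proteins to messenger RNAs, mostly through pairing of the seed, the bases near the 5′ end, with sites in the message, which lowers its stability or translation. miR-148b belongs to a family with miR-148a and miR-152, and family members share their seed and many predicted targets. In breast cancer cells, work on this family has concerned adhesion and invasion genes such as ITGA5 and ROCK1, the cytokine CSF1 and, in several cell types, the DNA methyltransferase DNMT1. The mature sequences are shown because the seed is what the family shares and what defines the sites that the added precursor can pair with. Each is given 5′ to 3′ from RefSeq (GRCh38.p14), with bases 2 to 8, the seed, in capitals.

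hsa-miR-148b-3p: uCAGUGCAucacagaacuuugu

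hsa-miR-148a-3p: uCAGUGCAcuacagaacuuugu

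hsa-miR-152-3p: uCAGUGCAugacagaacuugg

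hsa-miR-148b-5p: aAGUUCUGuuauacacucaggc

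The 3p sequences of the family had the same seed, and a DNA site complementary to it reads TGCACTG. hsa-miR-148b-3p lies at chr12:54337278-54337299 on the plus strand, hsa-miR-148a-3p at chr7:25949922-25949943 on the minus strand and hsa-miR-152-3p at chr17:48037174-48037194 on the minus strand. Counted from 1 at the 5′ end, with the base of miR-148b-3p first, miR-148a-3p differed by U9C and C10U. miR-152-3p, which is 21 bases long against 22, differed by C10G and U20G within its length. The other arm, miR-148b-5p, carries another seed. Which arm the cells loaded was not measured, and target sites in the messages of the genes below were not analysed here.

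The 6 arrays had median intensities between 370.2 and 403.6 and the same highest value, 243058.2. A value stood on all 6 arrays for 31008 of 33446 probes, and these were tested. They represent 15034 named genes, each through the probe that was brightest on average. Precision is limited by having 3 arrays per group, and no detection call was used. The 8 genes taken as markers of MDA-MB-231 were bright in every pair, with mean levels from 9004 for CAV2 to 137140 for VIM. Of the 6 measured genes taken as low in this line, ESR1, CDH1 and ERBB3 read under 100 on every one of the 6 arrays. EPCAM was not low, and read 2422, 3283 and 3023 with miR-148b, against 2234, 3684 and 2348 in control. Each of its readings lay above 462, the median level of the probes tested. TFF1, another gene taken as low, was not low in pair 1, as given next, and GATA3 read between 105 and 315. Leukocyte markers ranged in mean level from 11.4 for PTPRC, which defines leukocytes, to 1741 for CSF1R.

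Pair 1 stood apart from pairs 3 and 4 in both groups. TFF1, a secreted trefoil peptide of luminal epithelium, read 11813, 419 and 241 with miR-148b, against 10846, 584 and 292 in control, in replicates 1, 3 and 4. This order of replicates holds for all sets of values below. TFF3, another trefoil peptide, read 9160, 246 and 291 with miR-148b, against 10992, 306 and 394 in control. TGFBI, an extracellular matrix protein listed here among the genes high in MDA-MB-231, read 3280, 20219 and 19215 with miR-148b, against 3960, 23386 and 20134 in control. In all of these genes the step between pair 1 and the others was far wider than the step between treatments. The pair took 77.8% of the variance of log2 intensity around the probe means, the treatment 8.55% and the rest 13.7%. The treatment share also holds spread between the arrays of a pair, so it is not a measure of effect alone.

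The paired comparison asked which genes differed after 48 h with miR-148b once the level of each pair was taken out. It was a limma fit of log2 intensity with the pair as a block, two-sided, adjusted by the method of Benjamini and Hochberg. At an adjusted p of 0.05 the fit called 0 of 31008 probes (0%) and 0 of 15034 genes (0%), with a smallest adjusted p of 0.543. At the thresholds the series names, a 1.5-fold change and 16% false discoveries, it called 0 of 31008 probes (0%). Under the other settings tried, the smallest adjusted p ranged from 0.291 to 1. Every gene below is therefore given by its values, and none is called changed. These p-values measure the spread between arrays that the labels name biological replicates, with no statement of separate cultures.

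At an unadjusted p of 0.05 the same fit held 2813 of 31008 probes (9.07%) and 1419 of 15034 genes (9.44%). Of these genes, 593 (3.94% of all tested) read higher with miR-148b and 826 (5.49%) read lower. Without the pair as a block, 382 probes had an unadjusted p under 0.05, and the smallest adjusted p was 1.00. The median standard error of the log2 difference was 0.148 with the block and 0.305 without it. Without pair 1, the fit on pairs 3 and 4 had 1086 genes at an unadjusted p under 0.05 and a smallest adjusted p of 0.607.

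**Figure D1:**
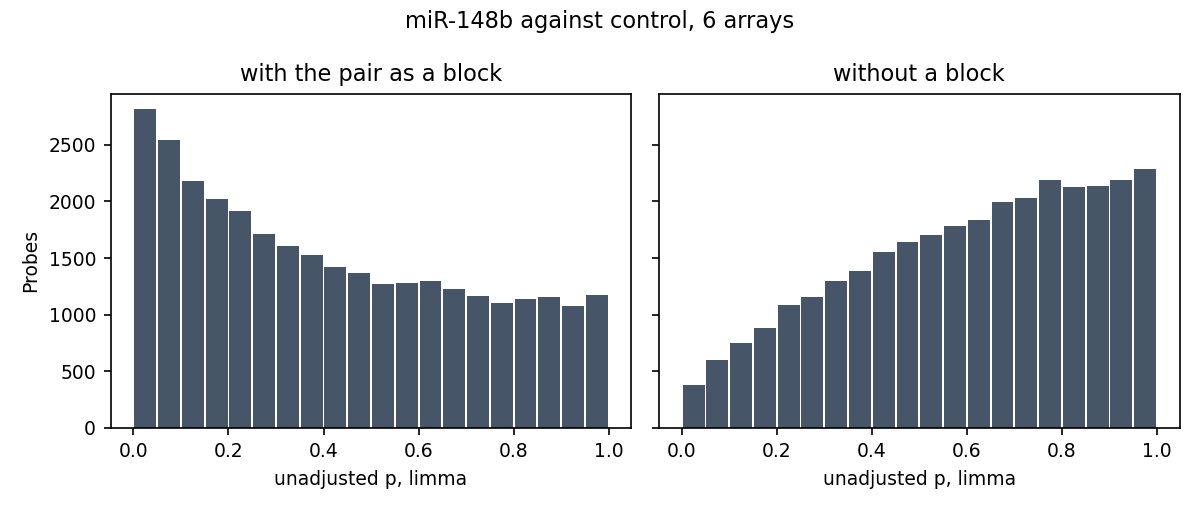
Unadjusted p-values of 31008 probes for miR-148b against control on 6 arrays, in bins of 0.05, as numbers of probes. With the pair as a block (left) the lowest bin is the fullest, with 2813 probes, and without the block (right) it is the emptiest, with 382.

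ITGA5, ROCK1, CSF1 and DNMT1, each tied to miR-148b or its family in earlier work, read below control in each pair by the probe that stands for the gene. ITGA5, the fibronectin receptor subunit of the integrin family, read 353, 336 and 453 with miR-148b, against 651, 461 and 750 in control. The highest miR-148b array lay just under the lowest control array, and the log2 difference was -0.69 (SE 0.14). ROCK1, a kinase that drives actomyosin contraction, read 1388, 1300 and 1432 with miR-148b, against 1913, 1583 and 1889 in control. Its groups did not overlap either, at a log2 difference of -0.38 (SE 0.12). A second, dimmer ROCK1 probe was at 0.08 and differed in sign between the pairs, so the probes of this gene did not point one way.

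CSF1, the macrophage colony-stimulating factor, read 296, 393 and 301 with miR-148b, against 411, 496 and 377 in control. The groups overlapped because replicate 3 was high in both, while every pair had the miR-148b array below its control, with a log2 difference of -0.38 (SE 0.11). Its other probe lay at -0.78. DNMT1, the maintenance DNA methyltransferase, read 2353, 2116 and 2183 with miR-148b, against 4749, 2373 and 3031 in control. The 3 miR-148b arrays were close to each other and the control arrays were not, so that the within-pair log2 differences ran from -1.01 in replicate 1 to -0.17 in replicate 3, with a mean of -0.55 (SE 0.20).

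COPZ1, a coatomer subunit whose gene holds the miR-148b hairpin, read 2589, 3208 and 3580 with miR-148b, against 3056, 3406 and 4026 in control. The added precursor does not carry this gene. Its log2 difference was -0.17 (SE 0.11), with overlapping groups, and its other probe lay at -0.12 with replicate 1 above control, at 0.03. By the probe that stands for each gene, the 3 differences below 0 of these 5 genes give an exact two-sided sign-flip p of 0.25, which is the smallest that 3 pairs allow. The groups of ITGA5, ROCK1 and DNMT1 did not overlap, where 875 of all 15034 genes (5.82%) had groups that did not overlap in either direction. ITGA5, ROCK1 and CSF1 are targets the study itself reports, so their direction here is no independent evidence. They are only a part of the targets it reports, and the rest were not analysed here.

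**Figure D2:**
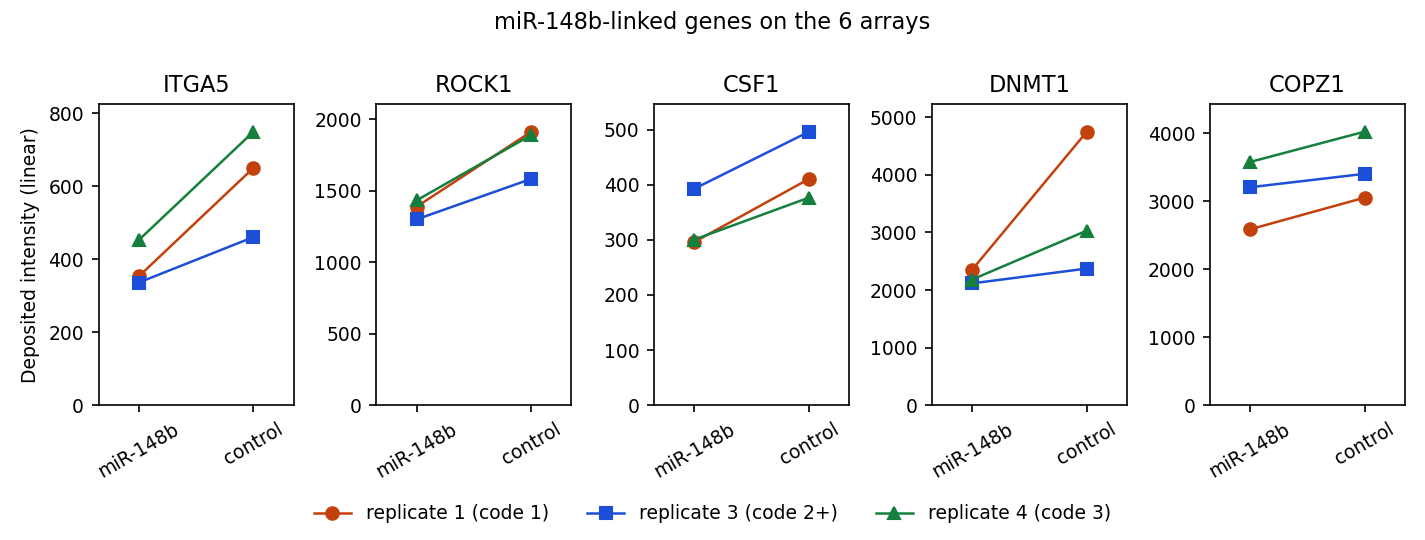
Deposited linear intensity of ITGA5, ROCK1, CSF1, DNMT1 and COPZ1 on each of the 6 arrays, miR-148b on the left and control on the right of each panel, with lines joining the arrays of a replicate. Every line climbs toward control, and for DNMT1 the replicate 1 line goes to 4749 in control while the 3 miR-148b arrays lie between 2116 and 2353.

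Among 41 measured genes that the literature gives as targets of the miR-148 and miR-152 family, 31 lay below control on the mean and 10 above, with a median log2 difference of -0.17. Over all genes, 52.9% lay below control, with a median of -0.02. Of the 41 targets, 17 (41.5%) read lower in each of the 3 pairs, where 3107 of all genes (20.7%) did, and 4 (9.76%) read higher in each pair, where 2619 of all genes (17.4%) did. At an unadjusted p of 0.05, 6 of the 41 (14.6%) read lower, against 5.49% of all genes, and 2 (4.88%) read higher, against 3.94%. Without replicates 1, 3 and 4 in turn the median of the list was -0.15, -0.19 and -0.25.

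The lowest p-values in this list belonged to receptor, matrix and transport genes. MMP15, a membrane-bound matrix metalloproteinase, read 194, 202 and 190 with miR-148b, against 294, 288 and 245 in control, a log2 difference of -0.50 (SE 0.12). ACVR1, a type I receptor for bone morphogenetic proteins, read 565, 651 and 743 with miR-148b, against 747, 1011 and 949 in control. SLC2A1, the glucose transporter GLUT1, read 19642, 22110 and 20049 with miR-148b, against 26957, 29042 and 23672 in control.

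In those genes the lowest control array was above the highest miR-148b array. B4GALT5, a galactosyltransferase of glycolipid synthesis, lay at -0.45 and IKBKB, a kinase that activates NF-kappa-B, at -0.32, both below control in each pair. CDKN1B, the cyclin-dependent kinase inhibitor p27, lay at -0.33. The receptor kinase gene MET, the growth factor TGFB2 and the chromatin reader SPIN1 were near 0, at -0.02, -0.05 and -0.01. GADD45A and DNMT3B stood on the other side, at 0.38 and 0.49.

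DNA methylation genes were measured for 14 members, of which 10 lay above control and 4 below, with a median of 0.19. TDG, the thymine DNA glycosylase that removes oxidised methylcytosine, read 15002, 13677 and 10198 with miR-148b, against 8263, 9731 and 6164 in control. Its miR-148b arrays all lay above its control arrays, at a log2 difference of 0.69 (SE 0.13), and the other TDG probes lay at 0.93 and 0.63. DNMT3B, a de novo DNA methyltransferase, read 7733, 3058 and 2016 with miR-148b, against 4357, 2798 and 1424 in control. DNMT3A, the other de novo enzyme, read 426, 645 and 357 with miR-148b, against 233, 546 and 284 in control.

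In both de novo enzymes the groups overlapped and each pair had miR-148b above control, while DNMT1 lay below control in each pair. GADD45A, a stress-induced protein linked to DNA demethylation, read 9248, 9806 and 8235 with miR-148b, against 6265, 8231 and 6590 in control. Of the 14 genes, 9 (64.3%) were higher in each of the 3 pairs, against 17.4% of all genes. The pair medians were 0.42, 0.09 and 0.17 in replicates 1, 3 and 4, so the size of the step differed between pairs. The readers MBD2 and MBD1, which bind methylated DNA, lay at -0.20 and 0.35.

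The 12 genes above control and the 12 below it with the smallest p, the same direction in each pair and a mean level at or above the median of the probes tested (462) are described next. They were chosen by these differences, so that no test is attached to their direction. Their adjusted p was about 0.543 (limma) throughout. In 16 of the 24 the groups did not overlap, 7 above control and 9 below. Over all 15034 genes 875 (5.82%) had no overlap, and the choice of the 24 by p and direction favours it.

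Above control, UBE2V1, a ubiquitin-conjugating enzyme variant that works with UBE2N in forming lysine 63 chains, read 6191, 6530 and 8620 with miR-148b, against 3418, 3839 and 4566 in control. Its log2 difference was 0.85 (SE 0.11), and 3 other probes of the gene lay between 0.70 and 0.74. ERLIN2, a scaffold protein of the endoplasmic reticulum, read 1443, 1449 and 1575 with miR-148b, against 738, 890 and 922 in control. GNA13, a G protein alpha subunit, read 4479, 4170 and 4542 with miR-148b, against 2548, 2478 and 2897 in control.

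In these genes, by the probe that stands for each, the groups stood clear of each other. The other GNA13 probes lay above control in each pair with less even steps, of 1.65, 0.23 and 0.78 for one and 0.88, 0.20 and 0.57 for the other. CDK6, a G1 kinase, read 20249, 15991 and 15154 with miR-148b, against 12437, 10846 and 8534 in control, at 0.70 (SE 0.12), with its other probe at 0.48 and near 0 in replicate 1, at 0.05. HIC2, a transcriptional repressor, lay at 0.83, but its other probe lay at -0.27. REST, the repressor of neuronal genes, lay at 0.79, with another probe at 0.17, and ANKRD46 lay at 0.64. ANKRD33B lay at 0.95, with its other probe at 0.16.

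In some of the higher genes the pair set the level more than the treatment did. IL11, a cytokine of the interleukin 6 family, read 5659, 19848 and 18088 with miR-148b, against 2222, 11416 and 10242 in control. Each miR-148b array lay above its own control, at 0.99 (SE 0.16), while the replicate 1 miR-148b array lay below the controls of the other pairs. MEX3A, an RNA-binding protein, read 2569, 517 and 654 with miR-148b, against 1425, 353 and 392 in control. ACVR2B, a type II activin receptor, read 6802, 2916 and 3593 with miR-148b, against 4192, 1958 and 1876 in control.

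MEX3A and ACVR2B were brightest on pair 1 and IL11 dimmest there, in both groups. B3GNT5, a glycosyltransferase that starts the lacto-series of glycolipids, was also dimmest on pair 1 and lay at 0.70. For MEX3A the other probe lay at 0.90, and for ACVR2B the other probes lay at 0.59 and 0.98.

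Below control, SLC39A11, a zinc transporter, read 543, 597 and 433 with miR-148b, against 1007, 1191 and 742 in control, at -0.89 (SE 0.12). AHNAK2, a giant scaffold protein, read 666, 595 and 701 with miR-148b, against 1493, 1050 and 1793 in control, at -1.11 (SE 0.15). GNPDA1, which converts glucosamine 6-phosphate to fructose 6-phosphate, read 331, 490 and 390 with miR-148b, against 870, 786 and 842 in control, at -1.06 (SE 0.18).

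The control arrays of these genes stood above all miR-148b arrays. EPDR1, an ependymin-related secreted and lysosomal protein, read 6880, 5046 and 5465 with miR-148b, against 14017, 8405 and 9477 in control. The other EPDR1 probe lay at -0.44 and was near 0 in replicate 1, at -0.02. WASHC2C, a subunit of the complex that sorts cargo on endosomes, read 5138, 4979 and 5045 with miR-148b, against 8667, 8066 and 8173 in control. The 3 pairs of WASHC2C agreed closely, at -0.75, -0.70 and -0.70, and its 4 other probes lay between -0.56 and -0.38. WASHC2C has a near-identical copy, WASHC2A, which its probes may not tell apart.

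SMS, the spermine synthase, read 7599, 18281 and 13315 with miR-148b, against 13068, 32880 and 20985 in control. Its groups overlapped and its pairs did not differ in direction, at -0.76 (SE 0.12). ZDHHC24, of the palmitoyltransferase family, lay at -0.79, the netrin-related NTNG2 at -0.80 and the carbonic anhydrase CA13 at -0.66. The other CA13 probe lay at -0.14. FAM234A lay at -0.79, TMEM54 at -0.92 and TXNIP, an inhibitor of thioredoxin, at -0.89.

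For 16 of the 24 genes the array held other probes with a value on all 6 arrays, 24 in all. Of these probes, 23 lay on the same side of control as the probe that named the gene, and 21 did so in each of the 3 pairs. Probes of 1 gene share their RNA sample and are not replicates, so these counts are no separate support for the genes.

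**Figure D3:**
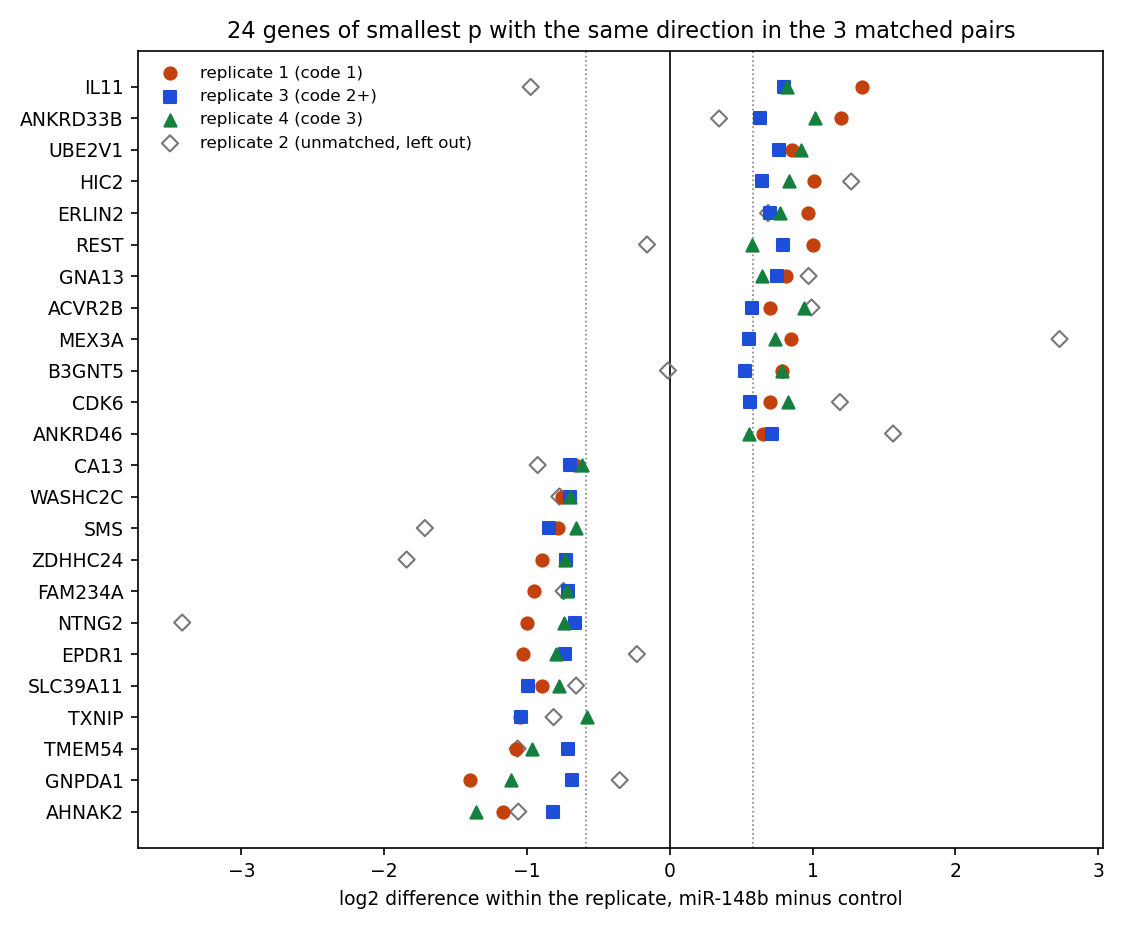
Log2 difference of miR-148b minus control within each replicate for the 12 genes above and the 12 below control with the smallest p, with dotted lines at a 1.5-fold change. The filled points of the 3 matched pairs lie close together on one side of 0, while the open points of replicate 2, which was not used to choose the genes, spread more widely, to 2.73 for MEX3A and -3.41 for NTNG2.

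A count by size in each pair gave a shorter list. Of 15034 genes, 31 (0.206%) were at least 1.5-fold higher with miR-148b in each of the 3 pairs, and 44 (0.293%) at least 1.5-fold lower. Most of these were dim, and 7 of the higher and 16 of the lower genes had a mean at or above the median level of probes. Those higher were IL11, UBE2V1, GNA13, ANKRD33B, HIC2, ERLIN2 and the Polycomb-related SCML1. Among those lower, beside genes already named, were AKR1C1, an aldo-keto reductase, at -0.94, GBP3, a guanylate-binding protein induced by interferon, at -0.65, the chloride channel protein CLIC3 at -0.80 and MAL2, a protein of apical transport, at -0.62. CTSA, the lysosomal cathepsin A, read 6042, 7910 and 8688 with miR-148b, against 15257, 12193 and 16433 in control. The other CTSA probe lay at -0.99, with a narrow step of -0.14 in replicate 3.

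Replicate 2 took no part in this choice and could be set beside it, with the limit that its arrays also differ in number and plus mark. Of the 23 genes at or above the median level, 22 had a replicate 2 value and 20 of those lay on the same side, 16 of them by 1.5-fold or more. Over all 9277 such genes with a value, 65.3% lay on the same side as the mean of the 3 pairs. The exceptions were IL11, at -0.97 in replicate 2, and MAL2, at 2.44. Of the 24 genes of smallest p, 23 had a replicate 2 value, and 20 lay on the same side, namely 8 of 11 above control and 12 of 12 below. These counts mix treatment with number and plus mark, so they are a description and no check of the direction.

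The difference between replicate 2 and the 3 matched pairs was itself tested across 30582 probes with a value on all 8 arrays, with the replicate as a block (limma). It passed an adjusted p of 0.05 for 1453 probes (4.75%). TFF1, with pairs at 0.12, -0.48 and -0.27, stood at 4.52 in replicate 2, and was among them. Treatment, number and plus mark cannot be told apart in replicate 2. Its left-out arrays therefore serve only as values beside those of the pairs, with no direction drawn from them.

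The 3 matched pairs also differed among themselves. At or above the median level, the standard deviation of the log2 difference over 15504 probes was 0.453 in replicate 1, 0.287 in replicate 3 and 0.255 in replicate 4. Across these probes the differences of replicates 1 and 4 correlated at 0.52, those of replicates 3 and 4 at 0.25 and those of replicates 1 and 3 at -0.16. The values are correlations across probes, which share their arrays and are not independent, and they are given as a description. The signs matched for 71.2% of probes in replicates 1 and 4, 58.9% in replicates 3 and 4 and 47.3% in replicates 1 and 3.

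Replicates 1 and 3 went apart in a set of bright genes. Of 9284 genes at or above the median level, 128 differed by at least 1.5-fold in opposite directions in replicates 1 and 3, and 116 of those were lower with miR-148b in replicate 1 and higher in replicate 3. For replicates 1 and 4 there were 8 such opposite genes and 132 that differed alike by 1.5-fold, and for replicates 1 and 3 there were 45 alike. ZSCAN10, a zinc finger transcription factor, read 4642, 8348 and 13285 with miR-148b, against 16314, 3084 and 11683 in control. KLK3, the prostate-specific antigen, read 13759, 19239 and 25069 with miR-148b, against 47053, 7365 and 37517 in control. Each of these readings is from 1 probe without a detection call, so it does not by itself show that the gene was expressed.

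In these genes control replicate 1 was the highest of the control arrays and control replicate 3 the lowest. EPHA2, an ephrin receptor kinase, read 1416, 2737 and 2947 with miR-148b, against 3382, 1300 and 3002 in control, and the homeobox gene EN2 had the same order among its control arrays. A mean over the pairs, and any list median, therefore joins steps that oppose each other for such genes. The gene list medians are given by pair for this reason.

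**Figure D4:**
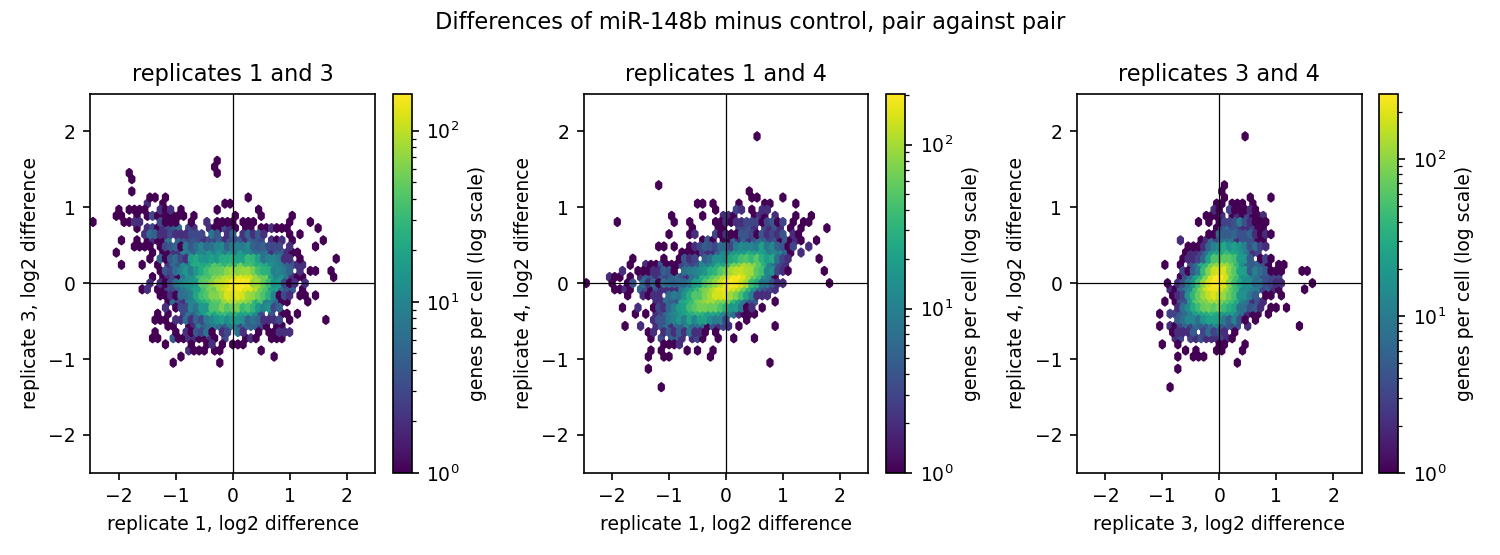
Log2 difference of miR-148b minus control in 1 matched pair against another, for 9284 genes at or above the median level, with colour for the number of genes per cell on a log scale (8 genes lie beyond the axes). The cloud of replicates 1 and 4 tilts upward, and that of replicates 1 and 3 has an arm at the upper left, the genes lower in replicate 1 and higher in replicate 3.

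Genes of the interferon response lay below control in most members. Of 39 measured genes, 33 had a mean below control, and 28 (71.8%) were lower in each of the 3 pairs, where 20.7% of all genes were. None of the 39 was higher in each pair, against 17.4% of all genes, and 10 (25.6%) were lower at an unadjusted p of 0.05, against 5.49%. The median log2 difference was -0.27, with pair medians of -0.31, -0.16 and -0.26, and it was -0.24 without replicate 1. The list and its direction were known from earlier results of these arrays, so the counts are a description.

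The antiviral and growth-restricting gene SAMD9L read 570, 3495 and 2307 with miR-148b, against 877, 4762 and 3657 in control. IFI27, a mitochondrial protein strongly induced by interferon, read 168, 10226 and 11502 with miR-148b, against 228, 13778 and 14987 in control. UBE2L6, the conjugating enzyme for ISG15, read 786, 904 and 935 with miR-148b, against 1133, 1207 and 1187 in control. UBE2L6 had no overlap between groups, while in SAMD9L and IFI27 the level of pair 1 was far below that of the other pairs in both groups.

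The steps of IFI27 were nonetheless alike, at -0.44, -0.43 and -0.38. ISG20, an exonuclease, lay at -0.43, and the membrane proteins IFITM2 and IFITM3, which hinder viral entry, at -0.35 and -0.30. Not all members lay low. The sensor kinase EIF2AK2 lay at 0.08, the synthetase OAS3 at 0.05, the ISG15 protease USP18 at 0.01 and IFIT5 at 0.21. ISG15 itself read 17069, 66959 and 48350 with miR-148b, against 18749, 73806 and 52796 in control, a log2 difference of -0.13.

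Genes of MHC class I presentation, which loads peptides for display to T cells, were below control for 18 of 21 members, with a median of -0.29. Of these 21, 11 (52.4%) were lower in each pair, against 20.7% of all genes, and 3 (14.3%) were lower at an unadjusted p of 0.05, against 5.49%. PDIA3, a protein disulfide isomerase of the peptide-loading complex, read 7281, 5952 and 6146 with miR-148b, against 10448, 8014 and 11659 in control. The immunoproteasome subunits PSMB10 and PSMB8 both lay at -0.35. Beta-2-microglobulin, B2M, the light chain of class I molecules, read 33806, 49230 and 46283 with miR-148b, against 42136, 57187 and 54348 in control.

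The class I heavy chains, close relatives whose probes may share targets, had wide steps in replicate 1 and narrow ones in replicate 3. HLA-E was at -0.94, -0.08 and -0.37 and HLA-B at -0.97, -0.04 and -0.35 in replicates 1, 3 and 4. Without replicate 1 the list median was -0.14.

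Of 32 lysosome and proton pump genes, 23 lay below control, and 16 (50.0%) were lower in each pair, against 20.7% of all genes, with a median of -0.16. Beside CTSA, the hexosaminidase subunit HEXA read 1424, 2125 and 1489 with miR-148b, against 2248, 2278 and 2129 in control. PSAP, the precursor of the saposins, lay at -0.59 and ATP6V0D1, a proton pump subunit, at -0.42. Both had a narrow step in replicate 3, of -0.15 and -0.07.

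Sterol synthesis genes lay above control for 20 of 24 members, with a median of 0.18, but the pairs did not give the same picture. The pair medians were 0.48, -0.02 and 0.16 in replicates 1, 3 and 4, and the median was 0.08 without replicate 1. HMGCS1, which makes hydroxymethylglutaryl-CoA, read 8175, 4891 and 3906 with miR-148b, against 2993, 5386 and 2730 in control. MSMO1, a methyl sterol oxidase, read 1332, 1355 and 1345 with miR-148b, against 661, 1106 and 996 in control, and was above control in every pair. Of the 24 genes, 8 (33.3%) were higher in each pair, against 17.4% of all genes, and 2 (8.33%) were higher at an unadjusted p of 0.05, against 3.94%.

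Genes of G1 to S passage and DNA replication lay above control for 23 of 31 members, with a small median of 0.08 and pair medians of 0.16, 0.12 and 0.06. Of the 31 genes, 13 (41.9%) were higher in each pair, against 17.4% of all genes. RRM2, a ribonucleotide reductase subunit, read 6216, 7653 and 8696 with miR-148b, against 5070, 5503 and 6489 in control. The other RRM2 probe lay at 0.29, but below control in replicate 1, at -0.08. The replication licensing factor CDC6 lay at 0.43 and the cyclin CCNE2 at 0.58. The 29 genes of G2 and mitosis had a median of 0.04.

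Integrin subunits did not all lie on one side. Of 16 members, ITGA5 included, 11 lay below control, with a median of -0.12, and 3 (18.8%) were lower in each pair, near the 20.7% of all genes. ITGB4, a laminin receptor subunit, read 2136, 1253 and 1536 with miR-148b, against 4224, 1466 and 2375 in control, while ITGB1, the partner of ITGA5 in the fibronectin receptor, lay at 0.07 and ITGA6 at -0.02. Among 29 genes of the actomyosin list, 3 (10.3%) were lower in each pair, against 20.7% of all genes, and 3 (10.3%) higher, against 17.4%, with ROCK1 and GNA13 on opposite sides.

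Of 25 cytokine, chemokine and receptor genes, 17 lay below control and 8 above, with a median of -0.06, and at an unadjusted p of 0.05, 2 (8%) were lower, against 5.49% of all genes, and 4 (16.0%) higher, against 3.94%. The lower ones were CSF1 and the chemokine CXCL16, at -0.54. Among the higher ones, PTX3, a soluble pattern recognition protein, read 22185, 19778 and 19424 with miR-148b, against 12238, 13654 and 12375 in control. LIFR, the leukemia inhibitory factor receptor, lay at 0.46. IL6R, the interleukin 6 receptor, was dim throughout, at 29.0, 53.8 and 54.4 with miR-148b, against 5.6, 14.5 and 20.4 in control. Of 17 ERK feedback genes, 10 lay above control and 7 below, with a median of 0.02, so the list as a whole lay near 0. At an unadjusted p of 0.05, 4 (23.5%) were higher, against 3.94% of all genes, and 0 lower, against 5.49%. Among its phosphatases, DUSP5 read 3350, 3360 and 4244 with miR-148b, against 2354, 2497 and 3027 in control. DUSP2 and DUSP7 both lay at 0.42, above control in each pair. Within the microRNA machinery, AGO1, an Argonaute protein, read 1951, 1695 and 1585 with miR-148b, against 2599, 2162 and 2039 in control. A dimmer AGO1 probe lay at 0.04, and the list of 22 genes had a median of -0.02.

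The remaining lists had medians between -0.13 for the clustered histones and 0.09 for the TGF-beta pathway. Of 43 histone genes, whose close copies may share probes, 21 (48.8%) were lower in each pair, against 20.7% of all genes. Of 41 respiratory chain genes, with a median of -0.09, 16 (39.0%) were lower in each pair. At an unadjusted p of 0.05, 2 of the histone genes (4.65%) and 0 of the respiratory chain genes were lower, against 5.49% of all genes. Markers of other cells were counted beside these lists. Of 9 leukocyte markers, 5 lay above control on the mean and 4 below, with a median log2 difference of 0.04. The pair medians were 0.22, -0.27 and 0.002 in replicates 1, 3 and 4. Of these 9, 2 (22.2%) were lower at an unadjusted p of 0.05, CD14 and CD68, against 5.49% of all genes, and 0 were higher. The summed intensity of the 9 read 2890, 4746 and 5998 with miR-148b, against 3661, 5355 and 6432 in control, lower in each pair. The brightest members add most to this sum. The 5 fibroblast and endothelial markers summed to 552, 1431 and 1189 with miR-148b, against 543, 1241 and 1052 in control, higher in each pair. Of 16 luminal breast markers, 4 (25.0%) were lower at an unadjusted p of 0.05, AGR2, MUC1, TFF3 and ELF3, against 5.49% of all genes, 0 were higher, and 7 (43.8%) were lower in each pair, against 20.7%. Their summed intensity read 225074, 184588 and 167948 with miR-148b, against 216137, 193084 and 175800 in control. The part of other cells in the list medians was not tested.

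**Figure D5:**
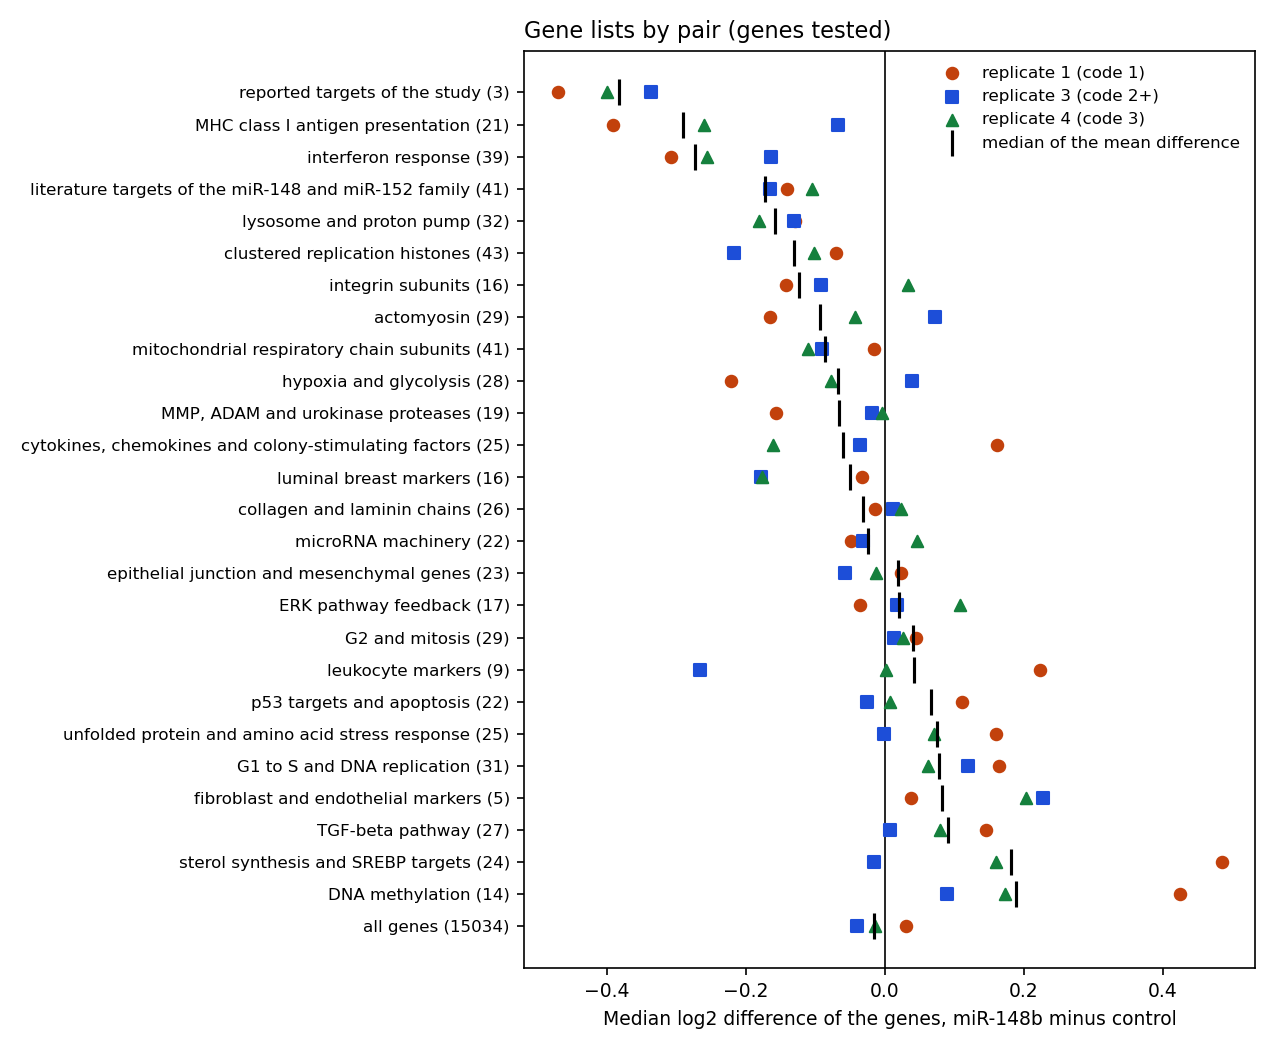
Median log2 difference of miR-148b minus control for each gene list in the 3 matched pairs (coloured points) and for the mean of the pairs (black bar), with the number of genes tested in parentheses and all genes in the lowest row. The 3 points of the interferon response lie between -0.31 and -0.16, while sterol synthesis runs from -0.02 in replicate 3 to 0.48 in replicate 1.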

How the data were processed

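The authors deposited 1 table of probe intensity values on a linear scale, 33446 probes by 8 arrays, with 0 columns left out here. Scans were quantified by version 10.5.1.1 of Agilent Feature Extraction, per the labels' descriptions. How background was treated and values were normalized or filtered is not given in the sources used here, and the arrays share their highest value. Were the arrays brought to 1 scale, a shift of all genes would not show. Log2 was taken with a pseudocount of 0. Of the probes, 2438 with an empty cell on the 6 arrays were not tested. GEO's platform annotation named 1 gene for 24790 probes, several for 27 and none for 8629, and symbols were updated through RefSeq (GRCh38.p14) for 24762.

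miR-148b was compared with control by limma 3.58.1 in R 4.3.3 (lmFit, eBayes, two-sided, Benjamini-Hochberg), with the pair as a fixed block (2 residual degrees of freedom and 2.48 prior ones). The fit was run on simulated data as a check of the code only, and its power at the spread of these arrays is not given here. The pairing comes from the titles. Deviations from the group means correlated at 0.71, 0.67 and 0.73 between arrays of the same number, and between -0.55 and -0.09 otherwise. The deviations of a group cancel out by construction, so the negative values follow in part from the positive ones. Genes were named by a rule: the 12 higher and 12 lower genes past the adjusted threshold, or else, as here, those with the smallest p, alike in direction in each pair and at or above the median level. ITGA5, ROCK1, CSF1, DNMT1 and COPZ1 were always given, and up to 4 genes per list past the threshold or else the 2 of smallest p, and further members of lists were named after their values were seen. The comparison, members, lists and rule were chosen with earlier results of these data known. Alternatives changed the block, arrays, dim probes, empty cells, pseudocount, centring, spread estimate and probe choice. Figures were drawn with matplotlib 3.10.9.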

Additional observations from a re-analysis of the deposited data

Results flagged for a closer look

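The difference between miR-148b and control was not the same in replicate 2 as in the 3 matched pairs for 1453 of 30582 probes at an adjusted p of 0.05 (limma, interaction of treatment with replicate 2). Of the named genes, MEX3A and NTNG2 were among them. MEX3A was at 2.73 in replicate 2 and at 0.71 in the pairs, so that replicate 2 was higher by 2.02 on the log2 scale, with an adjusted p of 0.0339 for the difference. NTNG2 was at -3.41 in replicate 2 and at -0.80 in the pairs, a difference of -2.61 with an adjusted p of 0.0249. Both genes also differed in level between pair 1 and the other pairs, MEX3A brighter and NTNG2 dimmer there. The miR-148b array of replicate 2 carries the number of pair 1 and its control array does not, so treatment and number cannot be told apart in that replicate.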

How the results depend on the processing

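The log2 differences of the 5 fixed genes kept their direction in 59 of 59 values under other settings, and those of the 24 named genes in 287 of 287. The 24 genes were chosen for the same direction in each pair, and the 5 fixed genes read below control in each pair. Leaving out a replicate, the block or the dim probes, or adding a pseudocount, could therefore not turn a sign. The counts are no separate support for these directions. No setting brought a probe past an adjusted p of 0.05. Without a replicate block, 204 genes had an unadjusted p under 0.05 (83 higher, 121 lower), against 1419 with it. Leaving out 1 replicate at a time gave 358 to 1694 such genes, 159 to 743 higher and 199 to 951 lower, with the lowest numbers without replicate 4. Genes at least 1.5-fold higher in each pair, 31 in all, came to 15 with replicate 2 added, 7 with a pseudocount of 50, 7 without the dimmest 50% of probes and 74 to 189 with 1 replicate left out, where fewer pairs had to match. Genes 1.5-fold lower, 44 in all, came to 17, 13, 16 and 114 to 208. The pair took 80.3% of the variance with the pseudocount and 81.8% without the dim probes. Probes where replicate 2 differed from the pairs, 1453 in all, came to 2991 with a trend in the spread, 2928 with the pseudocount and 108 to 3332 with 1 replicate left out, with 108 without replicate 4, 624 without replicate 3 and 3332 without replicate 1. The cause was not tested. List medians moved by more than the spread between pairs in 33 values and by less in 135. Dim probes had no detection call, so their folds are the least certain.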
